A study of Homo sapiens with 6 samples.

Results

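The genes described here encode the 3 inducible catalytic subunits of the immunoproteasome (PSMB8, PSMB9 and PSMB10), the 3 constitutive subunits whose places they take (PSMB5, PSMB6 and PSMB7), the 2 subunits of the PA28 proteasome activator (PSME1 and PSME2) and the 2 endoplasmic reticulum aminopeptidases (ERAP1 and ERAP2). They were chosen by symbol, with earlier results of these data known, and all 10 are listed among the 17356 gene rows of each library. RNA-seq values came from C4-2B-ENZR, a human prostate cancer line resistant to the androgen receptor inhibitor enzalutamide. The groups were 3 libraries labelled as transfected with siRNA against KIF15, a mitotic kinesin gene (siKIF15), and 3 labelled as transfected with negative control siRNA (NC). Both groups were the same line in the same medium, and no label gives the siRNA sequence, the time after transfection or whether the libraries of a group come from separate cultures. The tests below therefore weigh differences against a spread between libraries that may be only technical.

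KIF15 itself was 294.8, 333.1 and 363 in the libraries labelled siKIF15, against 366.4, 403.6 and 319 in NC. The groups overlapped, and the log2 change was -0.13 ± 0.14 (SE; adjusted p = 0.57), so a lower target transcript was not seen. Directions are given for the siKIF15-labelled libraries against NC, as the labels name them. Values are the authors' signal per gene, and depth is unknown. The values of a library summed to between 50360191 and 53157388 in siKIF15 and between 49460840 and 50063012 in NC. Markers of prostate luminal epithelium were present, with KLK3, the gene for prostate-specific antigen, at 69391.8, 72705.8 and 64508.2 in siKIF15 and at 67009.5, 62252.7 and 65275.8 in NC. The summed value of the 10 luminal markers ranged from 369189.7 to 383550.9 in siKIF15 and from 335503.1 to 343162.1 in NC. At an adjusted p under 0.05, 5 of the 10 were higher and none lower, beside 9.66% and 8.33% of all genes tested. KLK3 was not among the 5 (log2 change 0.09, adjusted p = 0.49).

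The 20S proteasome is a barrel of alpha and beta rings in which 3 beta subunits cut peptide bonds. PSMB8 (also called LMP7 or beta 5i), PSMB9 (LMP2, beta 1i) and PSMB10 (MECL-1, beta 2i) take the places of PSMB5, PSMB6 and PSMB7 in newly assembled particles, and the resulting immunoproteasome favours peptides that fit MHC class I molecules. Interferons are known inducers of the 3 immunoproteasome genes and of both PA28 genes, and leukocytes express them without induction. PA28 is a ring that caps and opens the barrel, and the ERAP enzymes trim the N-terminal ends of peptides after TAP has carried them into the endoplasmic reticulum.

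Promoter sequences are shown because the members were searched for the letters GAAA, any 2 bases and GAAA again (ISRE-type), the core of the interferon-stimulated response element that interferon-activated factors are known to bind. RefSeq windows on GRCh38.p14, running from 250 bases before to 50 bases after each annotated start, were at hand for 8 of the 10 members; PSMB6 and PSMB7 had none. The motif, read on both strands, occurred in 6 of the 12 windows of these members, 1 window in each of 6 genes. It occurred in 3.57% of all 35116 windows and in 3.1% of the 18917 windows of genes in the files. PSMB5 and PSMB9 had no match in their own windows. The stretches below are 30 bases on the gene's own strand, and capitals mark the match:
PSMB8: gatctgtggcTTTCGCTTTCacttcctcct
PSMB10: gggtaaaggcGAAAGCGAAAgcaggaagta
PSME1: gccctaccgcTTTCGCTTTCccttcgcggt
PSME2: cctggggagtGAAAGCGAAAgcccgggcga
ERAP1: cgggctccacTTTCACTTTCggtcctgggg
ERAP2: tcttagaacaGAAAGTGAAAgcaaaagtaa
TAP1: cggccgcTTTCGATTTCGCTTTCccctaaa

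These stretches lie at chr6:32844032-32844061 on the minus strand (PSMB8), chr16:67936852-67936881 on the minus strand (PSMB10), chr14:24136189-24136218 on the plus strand (PSME1), chr14:24146619-24146648 on the minus strand (PSME2), chr5:96807924-96807953 on the minus strand (ERAP1), chr5:96876460-96876489 on the plus strand (ERAP2) and chr6:32853816-32853845 on the minus strand (TAP1). PSMB10 and PSME2 share the 10 letters GAAAGCGAAA, and PSMB8 and PSME1 carry the same letters on the other strand. ERAP2 carries GAAAGTGAAA, and ERAP1 carries those letters on the other strand. TAP1, which encodes a subunit of the peptide transporter, is shown because it is divergent from PSMB9: their annotated starts lie 488 bases apart, and the 16 bases covered by 2 overlapping matches end 354 bases upstream of the PSMB9 start. In the 6 members the match began between 30 bases before and 6 bases after an annotated start. PSMB8, ERAP1 and ERAP2 have 2 annotated starts each, and in each of them only 1 of the windows held the match.

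**Figure D1:**
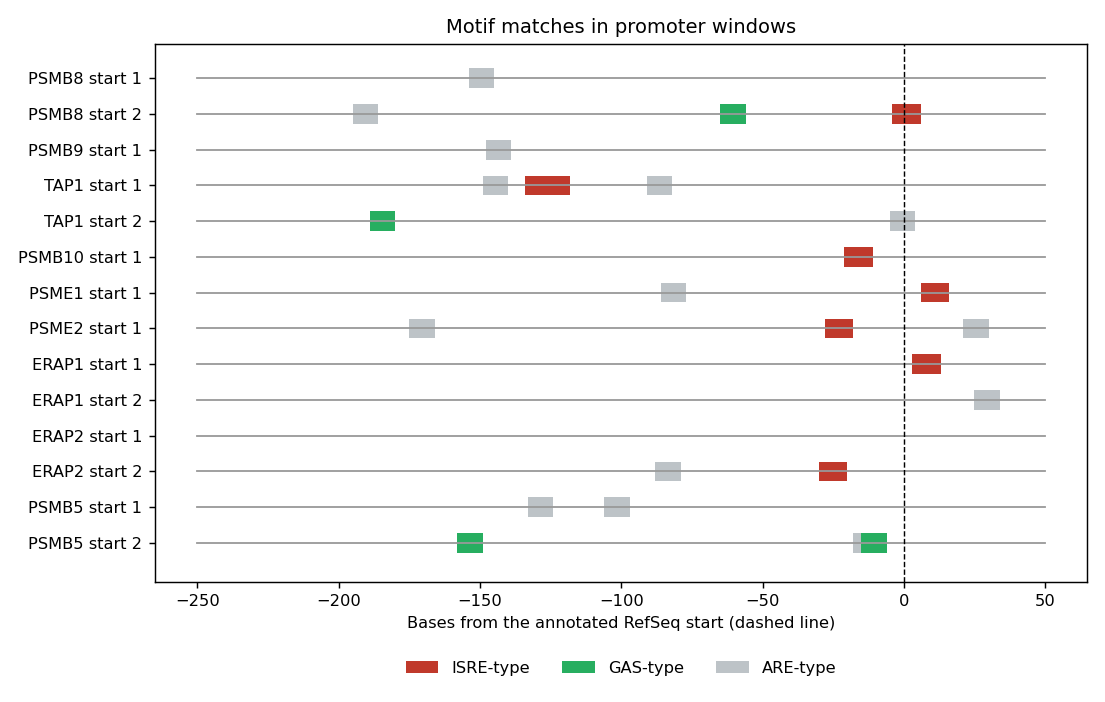
Promoter windows drawn as lines by distance in bases from each annotated RefSeq start (dashed line), with boxes for matches to the ISRE-type (red), GAS-type (green) and ARE-type (grey) letters. Red boxes lie within 30 bases of a start in PSMB8, PSMB10, PSME1, PSME2, ERAP1 and ERAP2, and are absent from the PSMB9 and PSMB5 windows.

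A further pair of motifs was searched on both strands in the same windows. The GAS-type letters TTCNNNGAA, the core of sites for STAT dimers, were found in 1 window of PSMB8 and 1 of PSMB5, and in 7.66% of all windows. ARE-type letters TGANNNNGC, the core recognised by the NFE2L1 and NFE2L2 factors that drive constitutive proteasome genes, were found in 41.8% of all windows, and among members with a window PSMB10 alone had none. In 1 PSMB5 window a GAS-type and an ARE-type match overlap. A match describes letters only and was not linked here to binding or to a change in level.

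Of the 10 members, 7 rose and none fell in the libraries labelled siKIF15, where a call is a Benjamini-Hochberg adjusted p under 0.05 in limma on log2(value + 1) over 16548 genes. Across those genes 9.66% were higher and 8.33% lower, or 18% in either direction. Because the members were chosen with earlier results known, these shares are background and no test of the count. No member had a lower value at an unadjusted p under 0.05. The 7 were PSMB9, ERAP2, PSMB8, PSME1, ERAP1, PSME2 and PSMB10, in order of size, and the 3 that did not pass were the constitutive subunits. In these 7 every siKIF15-labelled library was above every NC library, as was the case for 18.3% of all genes tested (34.8% had no overlap in either direction). The median log2 change of the 10 members was 0.35, beside 0 for all genes tested. In a bulk sample more cells expressing a gene and more of its RNA per cell cannot be told apart.

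The calls of PSMB9, PSMB8, PSME1, ERAP1 and ERAP2 were kept in all 17 alternative analyses. Those of PSMB10 and PSME2 were lost in 9 and 8 of them. ERAP1 passed only narrowly without siKIF15 1 (adjusted p = 0.045) and without an intensity trend (0.049), as did PSME1 without the trend (0.044). After correction of each library for GC content and transcript length, 5 members were higher and none lower, beside 13.7% and 12.9% of 16076 genes. Over the whole table the count of called genes was 1184, 2187 and 5077 without siKIF15 1, 2 or 3 and 1802, 1366 and 1723 without NC 1, 2 or 3, against 2978 with all 6. With the libraries scaled to equal totals 1205 genes were higher and 1753 lower, beside 1599 and 1379 for the values as deposited.

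**Figure D2:**
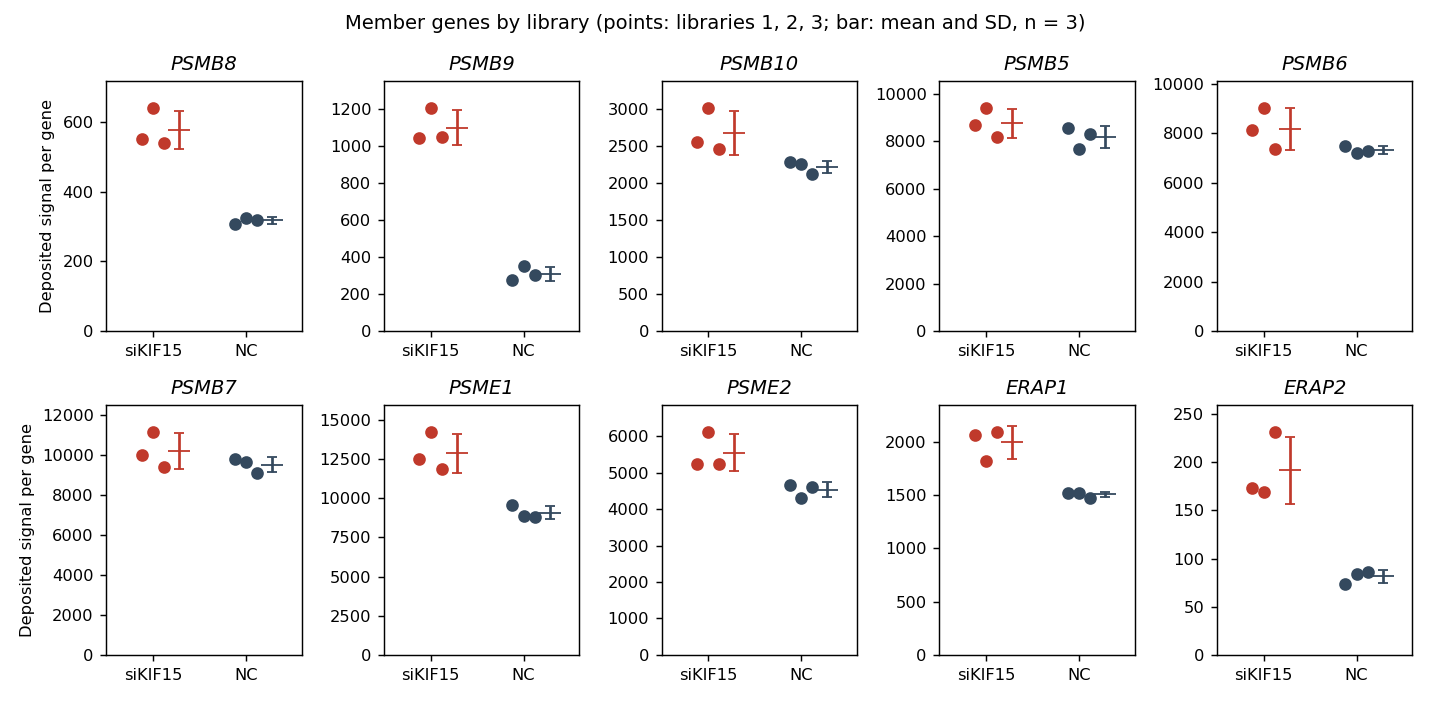
Deposited signal of each member (y axis from 0, linear) in the 3 siKIF15-labelled libraries (red, left) and the 3 NC libraries (dark, right), with mean and SD (n = 3). PSMB8, PSMB9, PSMB10, PSME1, PSME2, ERAP1 and ERAP2 show no overlap between groups, and PSMB5, PSMB6 and PSMB7 overlap.

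PSMB9, the beta 1i subunit, had the largest change of the members. It stood at 1041.3, 1205.9 and 1050.3 in siKIF15-labelled libraries 1 to 3, against 275.2, 349.6 and 303.2 in NC 1 to 3. Every siKIF15-labelled library was more than 3 times the NC mean, and siKIF15 2 was the highest. The log2 change was 1.83 ± 0.12 (SE; 95% interval 1.57 to 2.08; adjusted p = 2.5e-08), a 3.55-fold difference. It ranked 353 of 16548 genes by size of rise. GENCODE 29 places the gene at chr6:32844136-32859585 on the plus strand of GRCh38, in the MHC class II region.

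PSMB8, the beta 5i subunit encoded next to it (chr6:32840717-32844703, minus strand), was 551.9, 639.9 and 539.7 in siKIF15, against 307.2, 325.3 and 319.3 in NC. The groups were far apart, with the NC libraries within a narrow band and siKIF15 2 again the highest. Its log2 change was 0.86 ± 0.12 (SE; adjusted p = 1.5e-04), or 1.81-fold. PSMB9 was also higher relative to PSMB8 in all 3 siKIF15-labelled libraries. The within-library log2 ratio of PSMB9 to PSMB8 was 0.91, 0.91 and 0.96 in siKIF15 and -0.16, 0.1 and -0.07 in NC, a shift of 0.97 with no overlap (exact two-sided permutation p = 0.1, the smallest that 3 against 3 libraries can give). The annotated spans of PSMB8 and PSMB9 overlap on opposite strands, and that of PSMB9 also covers TAP1. Whether strand was used in counting is not stated, so reads from shared stretches are uncertain.

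PSMB10, the beta 2i subunit (chr16:67934502-67937087, minus strand), changed least of the 3. Its values were 2549.2, 3009.3 and 2450.4 in siKIF15, against 2275.3, 2248.1 and 2123.3 in NC. The groups were apart, but siKIF15 3 lay only a little above the highest NC library. The log2 change was 0.26 ± 0.09 (SE; 95% interval 0.08 to 0.45; adjusted p = 0.045), or 1.2-fold. Without siKIF15 1 or 2 the adjusted p was 0.12 and 0.16, and without NC 1, 2 or 3 it was 0.11, 0.14 and 0.19. It was 0.1 with libraries scaled to equal totals and 0.18 without an intensity trend in limma. After correction of each library for GC content and transcript length the log2 change was 0.07 (adjusted p = 0.37, and 0.36 with the replicate block). The log2 ratio of PSMB8 to PSMB10 was -2.21, -2.23 and -2.18 in siKIF15, against -2.88, -2.79 and -2.73 in NC, without overlap (exact permutation p = 0.1).

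The constitutive subunits did not pass, and none had an unadjusted p under 0.05. PSMB5, which carries the chymotrypsin-like activity (chr14:23016543-23035230, minus strand), was 8676.7, 9415 and 8190.5 in siKIF15 and 8563.5, 7688.2 and 8311.7 in NC. PSMB6, the caspase-like subunit (chr17:4796144-4798503, plus strand), was 8124.6, 9022.3 and 7350.8 in siKIF15 and 7482.1, 7190.1 and 7277.9 in NC. PSMB7, the trypsin-like subunit (chr9:124353466-124415444, minus strand), was 10025.2, 11192.3 and 9398.6 in siKIF15 and 9810.2, 9669.9 and 9099.9 in NC. In each of the 3 the groups overlapped, and siKIF15 2 was the highest library. The log2 changes were 0.1, 0.15 and 0.1, with 95% intervals of -0.06 to 0.25, -0.01 to 0.32 and -0.06 to 0.25 (adjusted p = 0.41, 0.19 and 0.42). These intervals leave room for rises of up to about the size seen for PSMB10. Without siKIF15 3, PSMB6 passed at a log2 change of 0.23 (adjusted p = 0.01). After the GC and length correction the 3 changes turned to -0.07, -0.07 and -0.04, none of which passed.

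Set pair by pair, the ratio of inducible to constitutive subunit was higher in every siKIF15-labelled library than in any NC library, in all 3 places. A ratio within a library does not depend on how libraries were scaled to each other. For PSMB8 to PSMB5 the log2 ratio was -3.97, -3.88 and -3.92 in siKIF15, against -4.8, -4.56 and -4.7 in NC, a shift of 0.76. For PSMB9 to PSMB6 it was -2.96, -2.9 and -2.81 in siKIF15, against -4.76, -4.36 and -4.58 in NC, a shift of 1.68. For PSMB10 to PSMB7 it was -1.98, -1.89 and -1.94 in siKIF15, against -2.11, -2.1 and -2.1 in NC, a shift of 0.17. Each had an exact permutation p of 0.1, also after adjustment over the 3 pairs; with 3 libraries a group no smaller p was possible. After the GC and length correction the shifts were 0.74, 1.66 and 0.11, and the groups of the PSMB10 to PSMB7 ratio then overlapped (exact permutation p = 0.2).

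Levels were compared between genes per kilobase, using median GENCODE 29 transcript lengths. On that scale PSMB9 made up 12.3%, 12.8% and 13.5% of the PSMB9 and PSMB6 total in siKIF15, against 3.87%, 5.05% and 4.36% in NC. PSMB8 made up 5.58% ± 0.17 of its pair in siKIF15 and 3.37% ± 0.27 in NC (SD, n = 3 each). PSMB10 made up 17.4% ± 0.4 of its pair in siKIF15 and 15.8% ± 0.04 in NC, a difference that was 1.08 percentage points after the GC and length correction (exact permutation p = 0.2). In every library the constitutive transcript was thus the more abundant of each pair. The 3 inducible subunits together held 12.1%, 12.8% and 12.7% of the level of the 6 catalytic subunits in siKIF15, against 8.39%, 9.08% and 8.5% in NC, a difference of 3.89 percentage points (exact permutation p = 0.1).

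**Figure D3:**
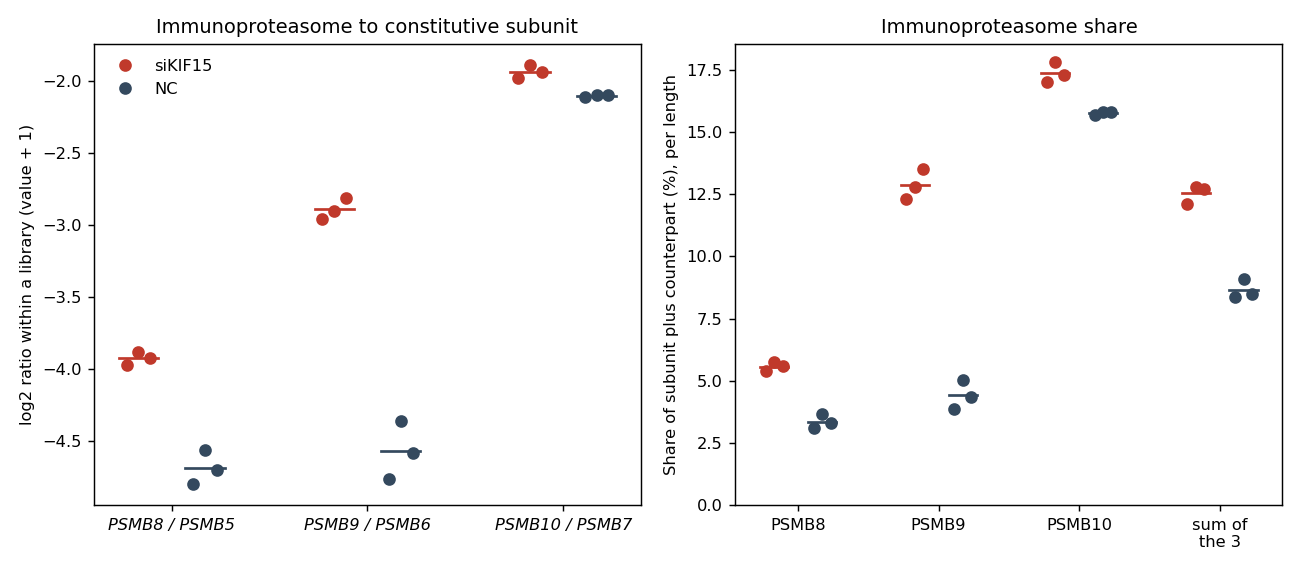
Left, log2 ratio of each immunoproteasome subunit to its constitutive counterpart within a library; right, share of the pair's level per length in percent, with the sum of the 3 against all 6 at the far right. Points are libraries (siKIF15 red, NC dark), lines are means, and the groups are apart in every column.

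Per kilobase, the order of mean levels in siKIF15 was PSME1, PSMB7, PSMB6, PSMB5, PSME2, PSMB10, PSMB9, PSMB8, ERAP1 and ERAP2. PSMB7, PSMB6 and PSMB5 followed each other with overlapping library ranges, and all other neighbours in this order were apart. In NC the order was PSMB7, PSME1, PSMB6, PSMB5, PSME2, PSMB10, PSMB9, ERAP1, PSMB8 and ERAP2. There the first 4 overlapped with their neighbours, as did ERAP1 and PSMB8. PSME1, first in siKIF15 and second in NC, was at 12618.5 ± 1217.6 per kilobase in siKIF15 and 8892.7 ± 414.5 in NC. ERAP2, last in both, was at 59.5 ± 10.9 per kilobase in siKIF15 and 25.3 ± 2.1 in NC (SD, n = 3 each).

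Both PA28 genes rose. PSME1, the alpha subunit (chr14:24136158-24138967, plus strand), was 12482.5, 14252.1 and 11859.2 in siKIF15, against 9552.5, 8857.8 and 8788.2 in NC. All siKIF15-labelled libraries were above all NC libraries, and the log2 change was 0.5 ± 0.08 (SE; adjusted p = 3.1e-04), or 1.42-fold. PSME2, the beta subunit (chr14:24143362-24147570, minus strand), was 5249, 6127.6 and 5249.2 in siKIF15, against 4672.5, 4300.1 and 4617.3 in NC. It too was apart, with a smaller log2 change of 0.29 ± 0.08 (SE; adjusted p = 0.017), or 1.22-fold. The PSME2 call ended without siKIF15 1 or 2 (adjusted p = 0.063 and 0.054), without NC 1, 2 or 3 (0.054, 0.12 and 0.062) and without an intensity trend (0.13). It also ended after the GC and length correction, where the log2 change was 0.07 (adjusted p = 0.35, also with the replicate block). PSME1 had a corrected log2 change of 0.33 (adjusted p = 5.9e-05).

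PSME1 was also higher relative to PSME2, its partner in the ring. The log2 ratio of PSME1 to PSME2 was 1.25, 1.22 and 1.18 in siKIF15, against 1.03, 1.04 and 0.93 in NC, a shift of 0.21 without overlap (exact permutation p = 0.1). PSME3, which forms a separate nuclear activator called PA28 gamma, was 13846.5, 13225.9 and 14242.1 in siKIF15 and 14311.3, 14695.9 and 14257.3 in NC. Its siKIF15-labelled libraries all lay just below NC, and the log2 change of -0.07 did not pass (adjusted p = 0.53). PSME4, the PA200 activator, had a log2 change of -0.28 (adjusted p = 0.052), of -0.01 after the GC and length correction, and passed without siKIF15 3 (adjusted p = 0.0023).

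Both ER aminopeptidase genes rose, ERAP2 with the larger log2 change. It was 173.2, 169.4 and 231.9 in siKIF15, against 74, 84.4 and 86.3 in NC (chr5:96875939-96919716, plus strand). Here siKIF15 3 was the highest library. The log2 change was 1.21 ± 0.2 (SE; 95% interval 0.79 to 1.63; adjusted p = 5.4e-04), or 2.31-fold, and it was 1.32 after the GC and length correction. ERAP1 (chr5:96760810-96808100, minus strand) was 2064.7, 1819.4 and 2095.2 in siKIF15, against 1515.9, 1522.7 and 1476.2 in NC. The NC libraries lay close together and siKIF15 2 was the lowest of its group. The log2 change was 0.4 ± 0.08 (SE; adjusted p = 0.0033), or 1.32-fold, and 0.61 (adjusted p = 3.7e-06) after the correction.

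The log2 ratio of ERAP2 to ERAP1 was -3.57, -3.42 and -3.17 in siKIF15, against -4.34, -4.16 and -4.08 in NC, a shift of 0.81 (exact permutation p = 0.1). The 3' part of ERAP1 overlaps CAST, the gene for the protease inhibitor calpastatin, on the other strand. CAST was 2876.8, 2749.8 and 3336.2 in siKIF15 and 2394.8, 2264.3 and 2361.2 in NC, so both genes of the overlap were higher (CAST log2 change 0.35, adjusted p = 0.0085; 0.055 and 0.071 without siKIF15 1 or NC 2). The share of reads from the overlap is unknown.

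**Figure D4:**
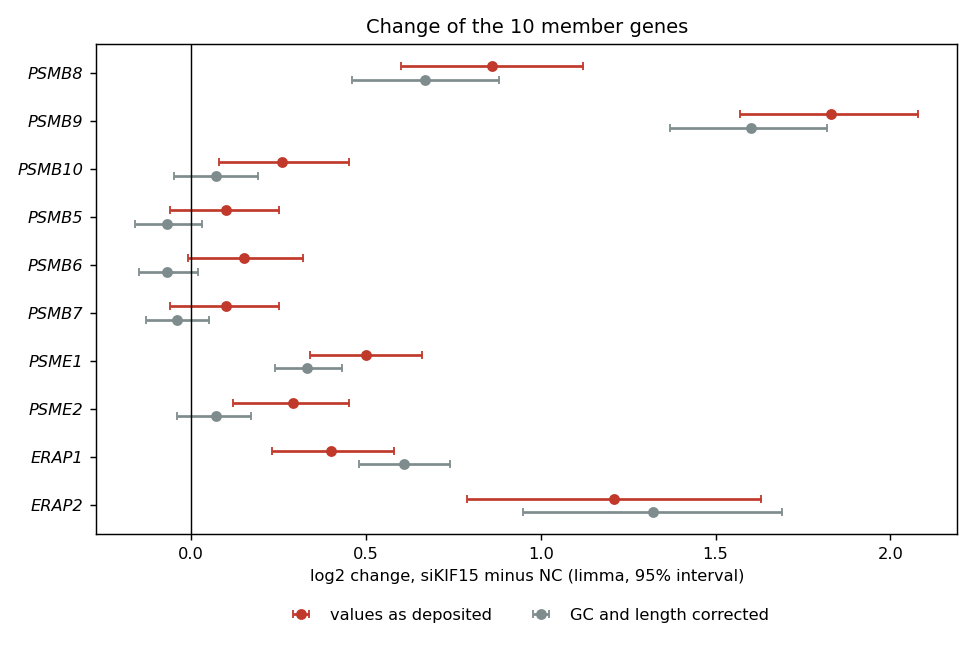
Log2 change of each member, siKIF15 minus NC, with limma 95% intervals, for the values as deposited (red) and after correction of each library for GC content and transcript length (grey). PSMB9, ERAP2, PSMB8, PSME1 and ERAP1 stay clear of 0 in both, PSMB10 and PSME2 reach 0 after correction, and PSMB5, PSMB6 and PSMB7 include 0 in both.

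Libraries differed along the properties that were corrected. The Spearman correlation, across genes, between a library's change from the NC mean and transcript GC content was 0.42, 0.4 and -0.09 in siKIF15 1, 2 and 3, and with transcript length it was -0.25, -0.42 and -0.08. Genes are not independent replicates, so these values describe libraries only. The 8 proteasome members have transcripts of 787 to 1218 bases with a GC content of 49.9% to 60.1%, whereas ERAP1 and ERAP2 have 5150 and 3219 bases and 41.4% and 40.5%. All 8 proteasome members were highest in siKIF15 2, and both ERAP genes in siKIF15 3. Their log2 changes moved in opposite directions under the correction: those of the 8 became smaller or negative and those of the ERAP genes larger.

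Most other proteasome genes did not pass, nor did most genes tested, of which 9.66% were higher and 8.33% lower. In the lists of 20S alpha subunits, 20S non-catalytic beta subunits, 19S ATPases and 19S non-ATPases, 7 of 34 tested genes were higher and none lower, with a median log2 change of 0.12; at an unadjusted p under 0.05, 11 were higher and 1 lower. Of these 7, PSMA7 and ADRM1 lie on chromosome 20. The 249 protein-coding genes listed on that chromosome had a median level of 1.7, and none reached a mean of 100, while on all other chromosomes the median was 795.7 and 68.3% of 16456 genes reached it. PSMA7, an alpha ring subunit, was listed at 3.3, 19.7 and 10.3 in siKIF15 and at 0 in every NC library. ADRM1, a ubiquitin receptor, was listed at 1.6, 6.2 and 8.2 in siKIF15 and at 0 in NC. PSMF1, which encodes the inhibitor PI31 and lies on the same chromosome, was between 6.3 and 9.3 in siKIF15 and between 8.2 and 16.2 in NC. No direction is read from these 3.

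The chromosome 20 genes were then left out, an alternative chosen after the data were seen. Of the 32 others 5 were higher (15.6%) and none lower, beside 9.66% and 8.33% of all genes tested. The median was 0.12, with a range of -0.2 to 0.31. The 5 were PSMC3, PSMA6, PSMA5, SEM1 and PSMC1. PSMC3, an ATPase of the 19S base, was 9217.2, 9979 and 8748.7 in siKIF15, against 7525.4, 7578.1 and 7472.1 in NC (log2 change 0.31, adjusted p = 0.0059). PSMA6, an alpha ring subunit, was 11504.4, 12593.9 and 11609.4 in siKIF15, against 9611.6, 10102.8 and 9622 in NC (log2 change 0.28, adjusted p = 0.008; 0.06 and 0.061 without NC 1 or 3). Both were apart between groups. PSMA5, SEM1 and PSMC1 had log2 changes of 0.24, 0.27 and 0.22 (adjusted p = 0.027, 0.027 and 0.046), and each lost its call when any 1 library other than siKIF15 3 was left out. Over the 34 genes, the number higher was 4, 3 and 12 without siKIF15 1, 2 or 3 and 2, 3 and 2 without NC 1, 2 or 3. After the GC and length correction 6 of the 32 were higher and none lower, beside 13.7% and 12.9% of 16076 genes. The median was 0.05. SEM1 then did not pass (adjusted p = 0.092), and PSMA4 and PSMD11 did (0.014 and 0.0061).

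None of the 6 assembly chaperone genes passed, while 9.66% of all genes tested were higher and 8.33% lower. So few genes cannot be set apart from those shares. The 6 genes had log2 changes of 0.05 to 0.18 and no unadjusted p under 0.05. They include POMP, the chaperone that brings catalytic beta subunits into the ring, at 8637.5, 10673.4 and 10111.3 in siKIF15 and 9441, 9851.4 and 9017.4 in NC (log2 change 0.05, adjusted p = 0.71). Of the 3 measured regulators of constitutive proteasome genes 1 rose, beside 9.66% of all genes tested. It was NFE2L1, at 17666.1, 16653.2 and 16576.9 in siKIF15, against 13272, 12921.3 and 13646.3 in NC (log2 change 0.35, adjusted p = 0.0015). NFE2L2, a related factor, and DDI2, the protease that activates NFE2L1, had log2 changes of 0.03 and -0.45 (adjusted p = 0.83 and 0.11). DDI2 passed without siKIF15 3 (adjusted p = 0.032).

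The called genes among peptidases other than the ERAP genes were lower. Of 12 tested, 4 fell and none rose, while 8.33% of all genes tested were lower and 9.66% higher. The list median was -0.08, and at an unadjusted p under 0.05, 5 were lower and 1 higher. After the GC and length correction 2 of the 12 were lower and 1 higher, beside 12.9% and 13.7% of 16076 genes. The corrected list median was -0.04. LNPEP, the third member of the ERAP family and its neighbour on chromosome 5, was 1502.1, 1302.7 and 1990.7 in siKIF15, against 2086.1, 2228.5 and 2133.8 in NC (log2 change -0.45, adjusted p = 0.016). TPP1, a lysosomal peptidase, was 6054.1, 5450.3 and 5944.4 in siKIF15, against 7763.3, 6827.1 and 7650.4 in NC (log2 change -0.35, adjusted p = 0.004). In both genes all siKIF15-labelled libraries were below NC. The cytosolic peptidases TPP2 and NPEPPS had log2 changes of -0.39 and -0.27 (adjusted p = 0.018 and 0.025). The calls of LNPEP, TPP2 and NPEPPS ended when any 1 library other than siKIF15 3 was left out, and those of LNPEP and TPP2 also after the GC and length correction (adjusted p = 0.092 and 0.054). LAP3, a leucine aminopeptidase known to be induced by interferon gamma, did not pass (log2 change 0.2, adjusted p = 0.092), but did after that correction (0.2, adjusted p = 0.015).

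Genes of peptide transport and loading were mostly higher, with 5 of 8 called higher and none lower, beside 9.66% and 8.33% of all genes. The list median was 0.31, and none was lower at an unadjusted p under 0.05 either. TAP1 was 8024.6, 8147.4 and 7262 in siKIF15, against 4504, 4394.4 and 4541.5 in NC, clearly apart (log2 change 0.8, adjusted p = 7.2e-07). PSMB9 had the larger change of this divergent pair: the log2 ratio of TAP1 to PSMB9 was 2.94, 2.76 and 2.79 in siKIF15, against 4.03, 3.65 and 3.9 in NC, without overlap (exact permutation p = 0.1). B2M, the light chain of MHC class I, was 72249.8, 78969.4 and 72499.5 in siKIF15, against 25240.3, 23987.2 and 24163.7 in NC (log2 change 1.61). The other calls were TAPBPL, a peptide editor (log2 change 1.09), and the chaperones CALR and PDIA3 (0.32 and 0.31, adjusted p = 0.013 and 0.0054). The CALR call ended without siKIF15 1, NC 1, NC 2 or NC 3, with adjusted p from 0.057 to 0.082, and that of PDIA3 without NC 2 (0.052). After the GC and length correction 6 of the 8 were higher and 1 lower, beside 13.7% and 12.9% of 16076 genes. TAP2 was then called at a log2 change of 0.32 (adjusted p = 1.0e-03), against 0.18 uncorrected. TAPBP, the gene for tapasin, was called at -0.16 (adjusted p = 0.035), against -0.07 uncorrected.

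**Figure D5:**
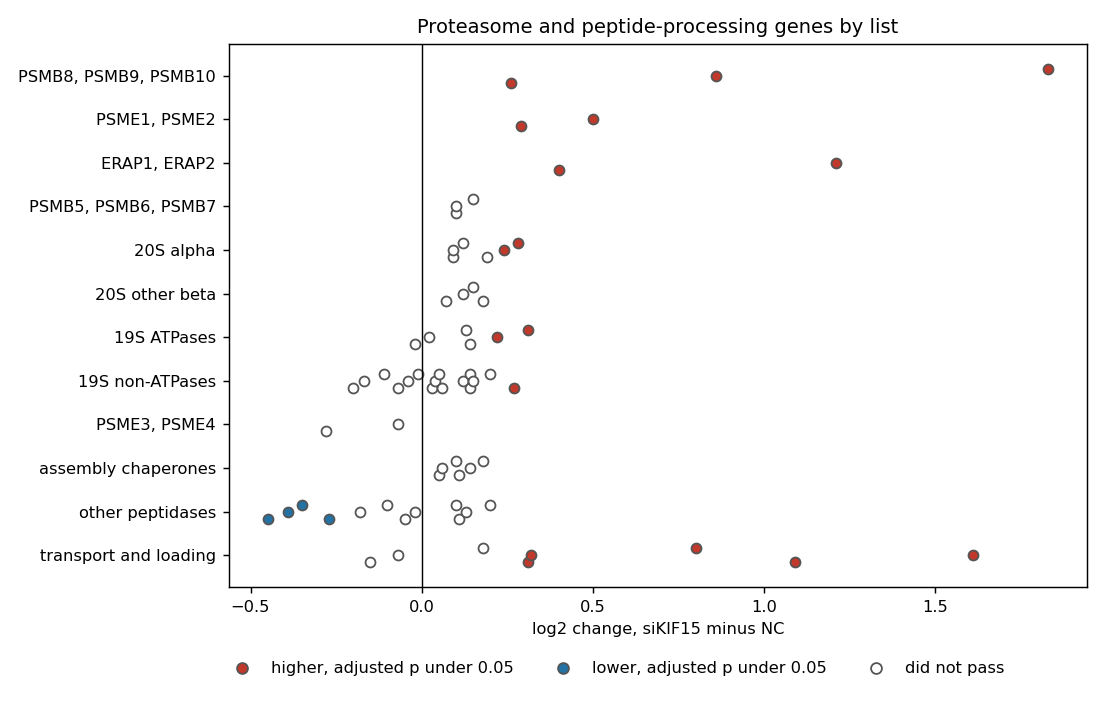
Log2 change, siKIF15 minus NC, of each tested gene by list (chromosome 20 genes left out); filled red and blue points passed an adjusted p of 0.05 as higher and lower, open points did not pass. The members in the top 3 rows are all filled, most other proteasome genes are open, and 4 other peptidases are blue.

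Among transcription factors known to act on immunoproteasome promoters, 3 of the 5 described here rose, beside 9.66% of all genes tested. None fell, also at an unadjusted p under 0.05. IRF1 was 2517.2, 2632.6 and 2531.7 in siKIF15, against 1154.8, 1078.7 and 1138 in NC (log2 change 1.19, adjusted p = 2.5e-08). IRF9, the DNA-binding part of the ISGF3 complex, was 1411.1, 1493.2 and 1437.1 in siKIF15, against 336.1, 256 and 347 in NC (log2 change 2.22, adjusted p = 2.6e-09). In both genes every siKIF15-labelled library was more than 2 times every NC library. IRF2 had a log2 change of 0.33 (adjusted p = 0.024, and 0.089, 0.11, 0.057 and 0.095 without siKIF15 1 or NC 1, 2 or 3). STAT2 and NLRC5, the MHC class I transactivator, had log2 changes of 0.26 and 0.19 (adjusted p = 0.051 and 0.19). STAT2 passed without siKIF15 2 or 3 (adjusted p = 0.037 and 0.043). Both passed after the GC and length correction, with log2 changes of 0.22 and 0.26 (adjusted p = 0.025 and 0.0068).

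Leukocytes carry much immunoproteasome, so their markers are given beside these rises. Of 11 tested leukocyte markers 3 were higher (HLA-DRA, CD74 and CD68) and 1 lower (LCP1), beside 9.66% and 8.33% of all genes tested. PTPRC, the defining leukocyte antigen, was listed at 0 in all 3 siKIF15-labelled libraries and at 0.8, 0.1 and 3.8 in NC. The summed value of the list, mostly LCP1, ranged from 28125.1 to 29509.1 in siKIF15 and from 30866.6 to 31757.2 in NC. HLA-DRA, an MHC class II gene, and CD74, the gene for the class II invariant chain, stood near the floor in NC. Interferon gamma also induces both in other cells. HLA-DRA was 274.6, 201.8 and 223.9 in siKIF15, against 3.5, 0.1 and 1.9 in NC. CD74 was 167.1, 180.6 and 180.5 in siKIF15, against 0.7, 0.1 and 5.8 in NC. CD68 had a log2 change of 0.87 and LCP1 of -0.25 (adjusted p = 0.018, and from 0.07 to 0.1 without siKIF15 1 or any 1 NC library). Of 9 tested fibroblast markers 2 were higher, PDGFRA and FAP, neither above 7.3 in any library, and none of 5 endothelial markers passed, also at an unadjusted p under 0.05. The part of any of these in the members' rises was not tested.

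For the 3 immunoproteasome genes, the most similar profiles were sought by Euclidean distance over the 6 libraries, in log2(value + 1) minus the NC mean. Nearest to PSMB9 were SP6, LGALS3BP and IFITM3, at distances of 0.32, 0.34 and 0.36. PSMB8 was nearest to HIST1H2BD, HLA-C and CYR61, at 0.11, 0.12 and 0.15, with HLA-C uncertain because it can share reads with other class I genes. PSMB10 lay nearest to DPF1, PTMA and COX7B2, at 0.06, 0.07 and 0.07. These short lists share no gene and could not share one. The 3 members differ in log2 change (0.86 for PSMB8, 1.83 for PSMB9, 0.26 for PSMB10) by more than the distances found. PTMA passed the test (log2 change 0.26, adjusted p = 0.028), while DPF1 and COX7B2, with log2 changes of 0.26 and 0.28, did not (adjusted p = 0.13 and 0.093).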

How the data were processed

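Per the labels' protocols, libraries were built from total RNA for Illumina sequencing. The authors deposited 1 signal value per gene symbol and library, with no unit in the file headers; from the values alone they look like counts adjusted to a common library size, with a shared floor far below 1, so depth is unknown and no count model or counting interval was used. Per the submitters' processing notes, Bowtie 0.12.2 is listed; mm8 and mm9, which are mouse builds, are named for these human samples. The human build is not given in the sources used here, and coordinates are those of GENCODE 29 (GRCh38). limma 3.58.1 in R 4.3.3, with an intensity trend, was fitted to log2(value + 1) for the 16548 genes whose mean reached 1 in either group, without covariates; this scale understates the change of low genes. Within-library ratios were compared by exact two-sided permutation of the 6 libraries, and 5 of the 8 ratios (PSMB9 to PSMB8, PSMB8 to PSMB10, PSME1 to PSME2, ERAP2 to ERAP1 and TAP1 to PSMB9) were chosen after their values were seen. GC content and length (GENCODE transcripts, matched for 97.1% of tested genes) were corrected per library with natural splines of 4 degrees of freedom in 1 alternative. The fit was tested on simulated data with independent noise for each gene. Those data lack the GC and length differences between libraries, so error rates under such differences were not tested. Replicate numbers did not pair the libraries. The members and gene lists were chosen with earlier results of these data known. Some genes of the lists are not reported here. Named are all members, KIF15, TAP1 and the 3 nearest profiles of each immunoproteasome gene. Outside the luminal markers, up to 4 called genes of each list with the smallest adjusted p are named, and members of counts of 5 or fewer. Other list genes, neighbouring genes and KLK3 were chosen after their values were seen. A library value printed as 0 is one below 0.05.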

Additional observations from a re-analysis of the deposited data

How the results depend on the processing

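Over the 17 alternatives the number of members called ranged from 5 to 8 and none was ever lower. The replicate block gave 7 members and 3184 genes over the table, and changed no member's call; same-numbered libraries deviated from their group means with correlations of 0.02, -0.02 and 0.02, and 2 of 6 libraries correlated best with their own number. The 3 pair ratios and the shares kept their direction in every alternative run. Without an intensity trend 1070 genes were called, 760 higher and 310 lower, with 2 constitutive proteasome genes higher and 5 members. Equal totals gave 4 constitutive genes higher and 1 lower. After the GC and length correction 2079 genes were lower (2163 with the replicate block), and PSMB5, PSMB6 and PSMB7 turned to -0.07, -0.07 and -0.04, the same values as with the block; the cause was not tested. Leaving out 1 library gave 1184 to 5077 calls, 767 to 2537 higher and 417 to 2540 lower, with 2 to 12 constitutive genes higher and 0 to 1 lower; these fits rest on 5 libraries. With 3 libraries a group and unknown depth, changes as small as that of PSMB10 lie at the limit of what these data resolve.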

Other observations

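The genes listed within 20 kb of the members were read beside them, a set chosen by position after the members' values were known. TAP2, the other transporter subunit gene, 1937 bases from PSMB8, was 4689.2, 4723.2 and 4522.9 in siKIF15 and 4203.6, 4018.9 and 4101.8 in NC. The groups were apart, but the log2 change of 0.18 did not pass (adjusted p = 0.079; 0.016 without siKIF15 3). After the GC and length correction it was 0.32 (adjusted p = 1.0e-03). EMC9 lies between PSME1 and PSME2 and overlaps the annotated end of PSME1 on the other strand. It had a log2 change of 0.09 (adjusted p = 0.52), and RNF31, which overlaps PSME2 on the other strand, had 0.11 (adjusted p = 0.4). IRF9 lies 13483 bases from PSME2. FITM1, 3309 bases from PSME1, was lower at low values, with 24.9, 36.4 and 23.8 in siKIF15 and 52.1, 57.1 and 44.4 in NC. The groups were apart, but its log2 change of -0.85 did not pass (adjusted p = 0.058; 0.012 after the GC and length correction). LNPEP, near ERAP2, was lower as given above. Next to PSMB10, PSKH1, a serine kinase gene, was 5747.1, 5816.5 and 5240 in siKIF15, against 4332.3, 4189.6 and 4528.3 in NC (log2 change 0.36, adjusted p = 0.0022), while CTRL, LCAT and SLC12A4 did not pass. PLD2, a phospholipase gene near PSMB6, had a log2 change of 0.31 (adjusted p = 0.007; 0.054 without siKIF15 1).

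PSMB11, the thymus-specific catalytic subunit, was listed at 1.8, 0 and 2.1 in siKIF15 and at 3.6, 0.1 and 0 in NC.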
